A study of Mus musculus with 7 samples.

Results

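The 36 genes described here encode coagulation and complement proteins that hepatocytes secrete into plasma. They are a list of clotting factors, their inhibitors, fibrinolysis proteins and complement components, chosen with earlier results of these data known. All 36 had at least 1 probe among the 32451 genes of the array, with 46 probes in all. RNA came from livers of male C57/BJ mice, which were put at 6 weeks of age on either a high-fat diet (HFD, D12331) or control chow and were killed at 26 weeks, after 20 weeks of feeding. The chow group held 4 samples and the HFD group 3, with 1 array per sample. All mice were otherwise alike in strain, sex and age per the labels, and no genetic change is named in either group.

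Coagulation is a chain of serine proteases, each made as an inactive precursor and activated by the one before, that ends in thrombin and fibrin. Antithrombin, heparin cofactor II and the protein C system hold it back, and plasmin dissolves the clot. Complement is a second protease chain in plasma, started by antibody or by lectins that bind sugars, which converges on C3 and ends with a pore built from C5 to C9. The liver is the main source of nearly all of these proteins, and several are acute phase proteins whose synthesis changes in inflammation.

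The deposited data hold 1 scanner file per array and a table of log2 values covering 1488 genes. Diet could be compared in that table alone. The table columns of the 3 HFD samples followed their scanner files closely over all probes (Pearson r from 0.99991 to 0.99994), but for the 4 scanner files labelled chow r lay between 0.58009 and 0.58904. In those 4 files 15 of the 36 genes, and 7 of 19 measured hepatocyte markers, stood out from background on no array, while the 3 HFD arrays measured all 36 genes and all 19 markers well above it. The scanner files labelled chow were therefore not used for any comparison. At all 1615 probes of the table the 3 HFD values lay entirely on one side of the 4 chow values, so the table had been selected on the diet comparison. A place in it is a description, its p-values are not independent evidence, and nothing is known here of the chow level of a gene outside it. How the authors scaled the chow columns could not be checked against scanner values. The labels do not say which animal each sample came from, so p-values measure the spread between these samples, which may be technical. Scan day and diet cannot be told apart, since the HFD arrays shared 1 scan day and the scan behind the chow columns is not known.

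Which of these plasma protein genes differed with diet was asked in the table. It held 11 of the 36 genes, and all 11 lay lower in HFD. They were C8b, C8a, Serpinf2, Cpb2, F7, Vtn, C3, Hc, C1ra, Proz and Kng1. Cpb2, Vtn and C1ra fell, at adjusted p-values of 0.0484 to 0.0491 in limma over all 32451 genes, and the other 8 did not pass (0.0507 to 0.0841). None of the 36 was higher in the table, where 2.47% of all genes on the array were higher and 1.05% passed as higher. The share of the 36 genes that were in the table and lower was 30.6%, where the same share of all genes on the array was 2.12%, and among 14044 named genes measured above background by 2 or more HFD arrays it was 3.57%. Genes that passed as lower made up 8.33% of the 36, 0.832% of all genes on the array and 1.36% of those 14044. The list was chosen with earlier results of these data known, so these shares are a description and not evidence of enrichment. The median difference of the 11 genes was -0.64 on the log2 scale, and that of all 687 lower genes of the table was -0.84. The 3 calls lie close to the threshold: 0 of the 11 genes passed when any 1 sample other than HFD replicate 3 was left out, and 2 passed without HFD replicate 3, neither of them Cpb2, Vtn or C1ra. With each column centred on its median 9 passed. Centring lowered every difference by 0.21, the amount by which the HFD column medians lay above those of chow, and C8b and C8a still did not pass (adjusted p = 0.0663 and 0.0567 in limma). Over the whole table the passing genes split into 342 higher and 270 lower as deposited and 186 higher and 605 lower after centring.

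**Figure D1:**
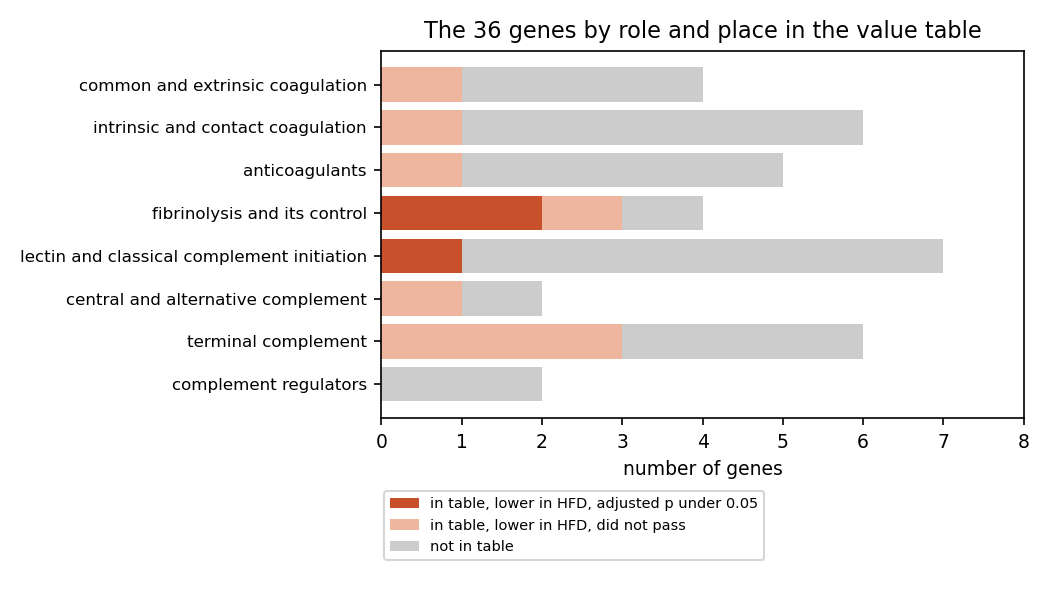
Number of the 36 genes by role (horizontal axis, genes), split into genes in the table that passed as lower in HFD, genes in the table that lay lower and did not pass, and genes outside the table. Fibrinolysis and its control had 3 of 4 genes in the table and terminal complement 3 of 6, while both complement regulators lay outside it.

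The promoters of the genes that lay lower were compared for short motifs known from promoters of liver and acute phase genes. A RefSeq table of promoters (GRCm38.p6, 250 bases before to 50 after the start) matched 28 of the 36 genes, 10 of them in the value table. The motif GTTAAT, searched on both strands, was found in 6 of those 10 promoters, in 3 of the 18 promoters of genes outside the table, and in 7.1% of all 32851 promoters. These 6 are printed because they carry this shared element, with the whole upstream stretch for the adjacent genes C8b and C8a and 60 bases for the others. Capitals mark the motif, as GTTAAT or its reverse complement ATTAAC, and each sequence runs 5′ to 3′ on the strand of its gene.
C8b (chr4:104766067-104766316, plus strand): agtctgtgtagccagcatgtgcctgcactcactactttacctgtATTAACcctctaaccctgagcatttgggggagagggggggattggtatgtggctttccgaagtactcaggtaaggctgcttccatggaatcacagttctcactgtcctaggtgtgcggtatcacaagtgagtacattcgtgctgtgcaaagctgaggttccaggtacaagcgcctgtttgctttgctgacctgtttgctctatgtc
C8a (chr4:104876399-104876648, minus strand): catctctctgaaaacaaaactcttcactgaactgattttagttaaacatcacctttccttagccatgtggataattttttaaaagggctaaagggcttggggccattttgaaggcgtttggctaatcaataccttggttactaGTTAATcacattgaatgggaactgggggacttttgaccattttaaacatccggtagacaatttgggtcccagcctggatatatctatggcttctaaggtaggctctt
C1ra (chr6:124512434-124512493, plus strand): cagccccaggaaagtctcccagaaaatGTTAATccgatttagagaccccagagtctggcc
Hc (chr2:35061454-35061513, minus strand): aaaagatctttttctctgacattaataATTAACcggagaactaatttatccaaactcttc
Vtn (chr11:78498981-78499040, plus strand): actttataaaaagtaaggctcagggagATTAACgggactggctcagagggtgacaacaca
Proz (chr8:13060670-13060729, plus strand): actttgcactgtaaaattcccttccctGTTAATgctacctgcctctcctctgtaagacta
With the base before the start counted as -1, the motif began at -206 in C8b, -107 in C8a, -160 in C1ra, -74 in Hc, -112 in Vtn and -211 in Proz. The STAT motif TTCNNNGAA was found in 3 of the 10 promoters, in 3 of the 18 and in 8.3% of all. C/EBP, searched as TTGCNNAA, matched 3 of 10, 5 of 18 and 10.8%. For TATAAA the counts were 3 of 10, 1 of 18 and 13.6%, and the HNF4 motif CAAAGTCC was in none of the 28 and in 1.42% of all promoters. All were searched on both strands, and no matches of different motifs overlapped in the 10 promoters. Such matches are letters in a window and do not show binding. The diet difference of the 18 genes outside the table is not known, and no set of other liver genes was compared. Of the motifs searched, GTTAAT, the one printed, had the highest count in the 10 promoters. Whether it bears on the diet difference was not tested.

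Among the genes that start complement, C1ra, which encodes the C1r protease of the classical pathway, fell. Its table values were 14.58, 14.60, 14.33 and 14.49 in chow replicates 1 to 4 and 13.87, 13.98 and 13.97 in HFD replicates 1 to 3. Every HFD sample lay below every chow sample, by a gap of 0.35, as the table's selection required. The difference was -0.56 on the log2 scale (SE 0.10), a 1.47-fold decrease with adjusted p = 0.0491 in limma. Another C1ra probe, slightly brighter on average over the HFD arrays, was not in the table, so its diet difference is not known here. C1rb, a close copy of C1ra, fell too, and probes of such copies can share signal.

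The lectin pathway genes and C2 and C4b were outside the table, so their HFD levels are given alone, as log2 of the signal over the 75th percentile of each array. Mbl1, a mannose-binding lectin, ran from 2.89 in HFD replicate 1 through 3.23 in replicate 2 to 3.56 in replicate 3. Mbl2, its paralog, spanned 7.12 to 7.40. These levels belong to different probes and have no order between genes. For Masp1, a lectin pathway protease, the range was -0.85 to -0.52, and for Masp2, the protease that cleaves C4 and C2, it was 4.33 to 4.60. C2, the protease precursor of the C3 convertase, had 4.70, 4.82 and 4.82, one of the tightest sets among the 36. C4b, the thioester protein of the same convertase, spanned 7.47 to 7.72.

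At the centre of the cascade, C3, whose cleavage all routes share, lay lower in HFD. It had 18.81, 18.77, 18.65 and 18.73 in chow and 18.30, 18.14 and 17.90 in HFD. In the table HFD replicate 3 was the lowest, but with scaling of the same probe's scanner signal to the 75th percentile replicate 1 was (8.24, 8.57 and 8.30), so the order within HFD depends on the scaling. The difference was -0.63 (SE 0.12), 1.54-fold, with adjusted p = 0.0523 in limma. After quantile normalization of the table's columns it was -0.02. The second C3 probe, printed in 10 spots and brighter on the HFD arrays, was not in the table. No spot was saturated on any array. Cfb, the protease precursor of the alternative pathway, was outside the table with HFD levels of 6.63, 6.66 and 6.70.

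Terminal complement held the 2 largest differences. C8b, the beta chain of C8, had 14.85, 14.91, 14.75 and 14.63 in chow and 11.50, 12.56 and 13.74 in HFD. Chow samples lay within 0.28 of each other, and HFD samples spread over 2.24. The difference was -2.18 (SE 0.46), 4.55-fold, with adjusted p = 0.0671 in limma. Without HFD replicate 3 it was -2.76, or 6.75-fold, with adjusted p = 0.0239, and without HFD replicate 1 it was 3.11-fold with adjusted p = 0.141.

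C8a, the alpha chain, is the next coding gene to C8b on chromosome 4. One of its probes had 15.40, 15.33, 15.15 and 15.09 in chow and 13.78, 14.09 and 14.72 in HFD, a difference of -1.05 (SE 0.22, adjusted p = 0.0665 in limma). The other had 12.72, 12.44, 12.36 and 12.49 in chow and 10.78, 10.88 and 11.46 in HFD, a difference of -1.46 (SE 0.18, adjusted p = 0.0283 in limma over all probes). Both probes put HFD replicate 3 nearest to chow, as C8b did. With the mean of both probes C8a passed (-1.25, adjusted p = 0.0375), as it did for the first probe without HFD replicate 3 (-1.31, adjusted p = 0.0274).

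Hc, which encodes C5, the start of the membrane pore, had 17.25, 17.21, 17.10 and 16.99 in chow and 16.41, 16.50 and 16.70 in HFD. The difference was -0.60 (SE 0.11), 1.52-fold, with adjusted p = 0.0531 in limma, and -0.35 after quantile normalization of the columns. C6, C9 and C8g were outside the table. C6, which joins C5b, had HFD scanner levels of 2.07, 2.48 and 3.37 in replicates 1 to 3, a 2.46-fold range and the widest of the 25 genes outside the table. C9, which forms the ring of the pore, had 1.51, 2.09 and 2.36. HFD replicate 3 was thus highest and replicate 1 lowest for C6 and C9 as for C8a and C8b. This order is not particular to them: with this scaling 31 of the 36 genes were highest in replicate 3 and 32 lowest in replicate 1. C8g, the gamma chain of C8 and a lipocalin, spanned 7.18 to 7.77.

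Both regulators of the cascade lay outside the table. Cfi, the protease that inactivates C3b and C4b, spanned 6.43 to 6.70 in HFD. For C4bp, its cofactor, the range was 6.43 to 6.83.

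**Figure D2:**
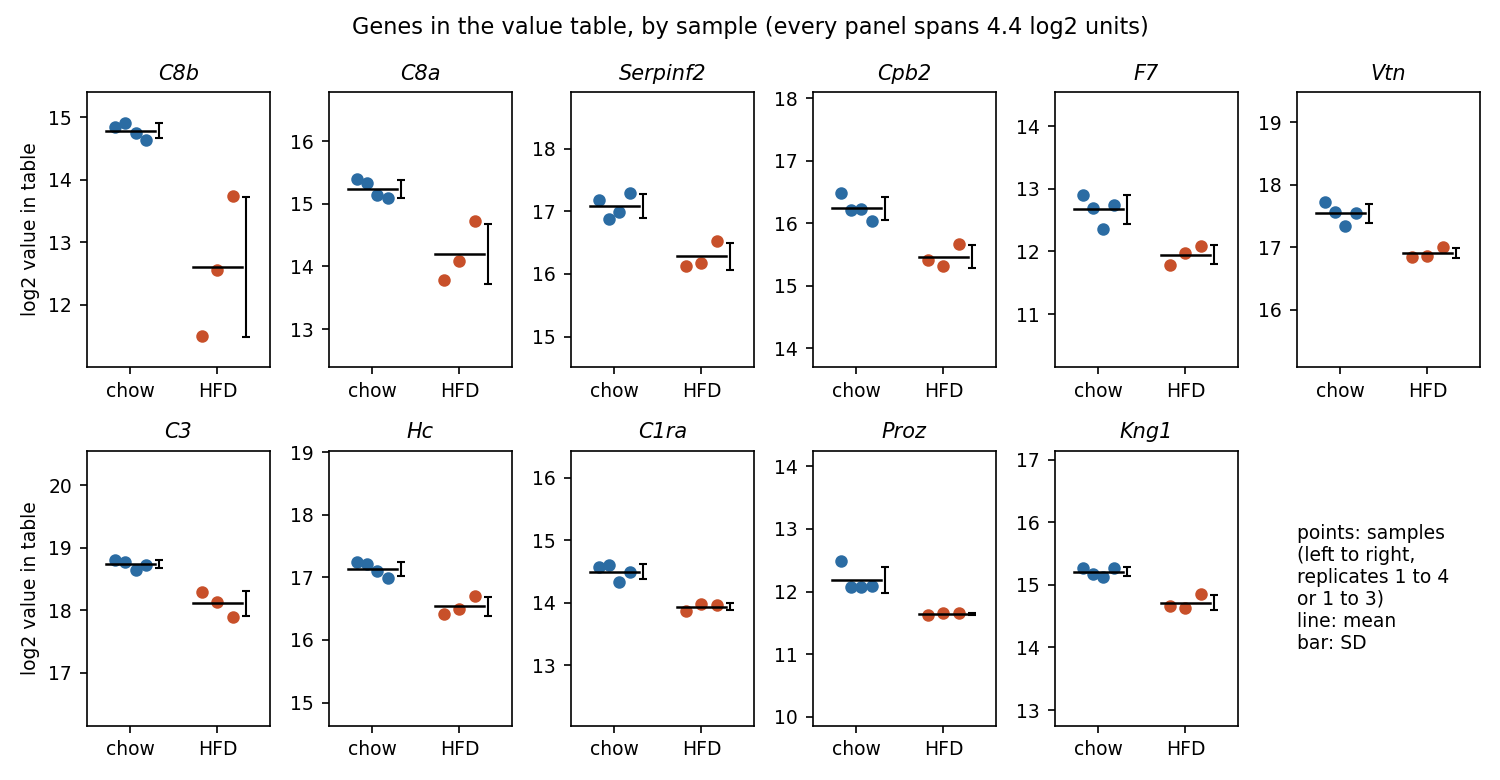
Log2 values of the deposited table for the 11 genes it holds, with 1 point per sample, the group mean as a line and the SD as a bar; every panel spans the same number of log2 units. The 3 HFD samples lie below the 4 chow samples in each panel, and C8b spreads from 11.50 to 13.74 in HFD.

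In the extrinsic and common coagulation route, F7, the protease that starts clotting with tissue factor, lay lower in HFD. Its values were 12.91, 12.69, 12.36 and 12.74 in chow and 11.79, 11.98 and 12.08 in HFD. The gap between the groups was 0.28. The difference was -0.72 (SE 0.15), 1.65-fold, with adjusted p = 0.0634 in limma, and a second F7 probe gave -0.71 (SE 0.16). F10, the protease where both routes meet, and Proz follow F7 directly on chromosome 8. F10 was outside the table, with HFD levels of 5.99 to 6.41. A second, dimmer F10 probe had 4.52, 5.49 and 5.04 in HFD replicates 1 to 3, a wider range with replicate 2 highest. F2, prothrombin, spanned 7.09 to 7.37 and F5, the cofactor of factor Xa, 4.12 to 4.37.

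Of the intrinsic and contact route, 1 of 6 genes was in the table. Kng1, kininogen, the source of bradykinin, had 15.27, 15.18, 15.13 and 15.27 in chow and 14.67, 14.63 and 14.85 in HFD. This was the smallest difference of the 11, at -0.50 (SE 0.10), 1.41-fold, with adjusted p = 0.0565 in limma. A second Kng1 probe, with a different RefSeq transcript accession, was not in the table. It was the brighter on the HFD arrays, at 8.33 to 8.67 against 4.78 to 5.11. The close paralog Kng2 may share signal with either probe. Outside the table, F9, the protease missing in haemophilia B, spanned 2.75 to 2.92 in HFD. F11, which activates F9, spanned 2.95 to 3.60, and Klkb1, plasma prekallikrein and the neighbour of F11, 4.34 to 4.76. For all 3, HFD replicate 3 was highest and replicate 1 lowest. F12, which starts the contact route, spanned 6.14 to 6.26, and F13b, the carrier subunit of the fibrin-crosslinking enzyme, 2.89 to 3.16.

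Among the anticoagulants, Proz, protein Z, a vitamin K-dependent cofactor of an inhibitor of factor Xa, lay lower in HFD. It had 12.49, 12.08, 12.08 and 12.09 in chow and 11.62, 11.65 and 11.65 in HFD. Chow replicate 1 stood above the rest. The difference was -0.54 (SE 0.13), 1.46-fold, with adjusted p = 0.0841 in limma. Pros1, protein S, had 1.47, 1.47 and 1.45 on the HFD arrays, the narrowest range of the genes outside the table. Proc, protein C, spanned 6.36 to 6.63. Serpinc1, antithrombin, spanned 8.34 to 8.66, and Serpind1, heparin cofactor II, 5.88 to 6.12.

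Fibrinolysis control held 2 of the 3 genes that passed. Cpb2, the carboxypeptidase TAFI, which trims fibrin so that less plasmin binds, had 16.48, 16.21, 16.23 and 16.04 in chow and 15.41, 15.32 and 15.67 in HFD. It fell by 0.77 on the log2 scale (SE 0.14), 1.71-fold, with adjusted p = 0.0486 in limma. Vtn, vitronectin, which stabilises the plasminogen activator inhibitor and blocks the complement pore, had 17.72, 17.56, 17.34 and 17.55 in chow and 16.85, 16.87 and 17.0 in HFD. The Vtn probe was printed in 10 spots, and the gene fell by 0.64 (SE 0.11), 1.55-fold, with adjusted p = 0.0484. After quantile normalization of the columns Vtn had -0.36 and did not pass (adjusted p = 0.480).

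Serpinf2, the plasmin inhibitor alpha-2-antiplasmin, had 17.19, 16.88, 16.99 and 17.29 in chow and 16.13, 16.18 and 16.53 in HFD. The difference was -0.81 (SE 0.15), 1.75-fold, just short of the threshold (adjusted p = 0.0507 in limma). Plg, plasminogen, the precursor of the clot-dissolving protease plasmin, was outside the table and spanned 6.44 to 6.98 in HFD.

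**Figure D3:**
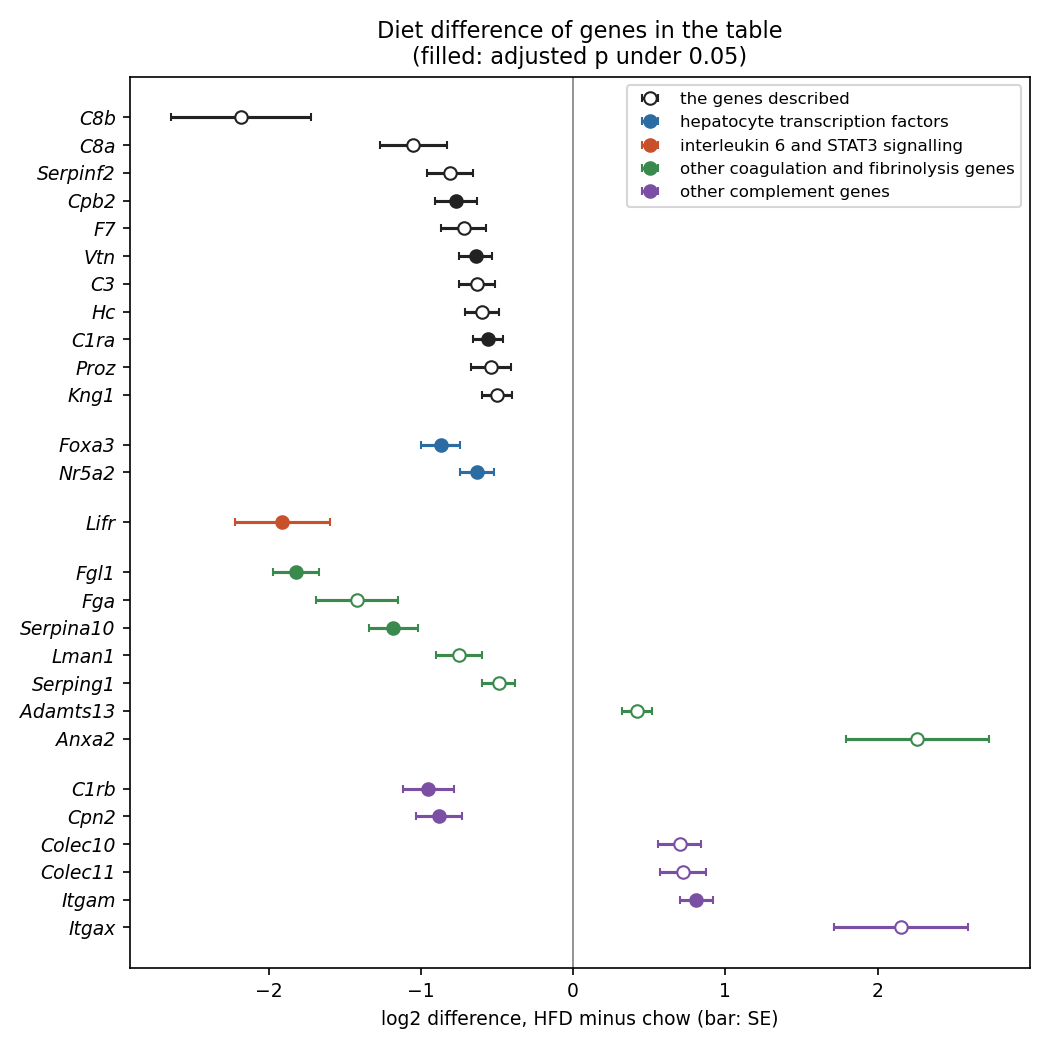
Log2 difference, HFD minus chow, with its SE, for the 11 genes and for the related genes named in the text; filled points passed at an adjusted p under 0.05. The 11 genes lie between -2.18 and -0.50, and related genes lie on both sides of 0.

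Other genes of the same systems were read from lists of further coagulation and complement genes. Of 38 measured coagulation and fibrinolysis genes beyond the 36, 7 were in the table, 5 lower and 2 higher, and 2 passed, both lower. Fgl1, a fibrinogen-like protein of hepatocytes, fell 3.53-fold (17.31 ± 0.16 to 15.49 ± 0.26, SD, n = 4 and 3), with adjusted p = 0.0180 in limma. Serpina10, the inhibitor for which protein Z is the cofactor, fell 2.26-fold (16.70 ± 0.23 to 15.53 ± 0.20, SD, n = 4 and 3, adjusted p = 0.0294 in limma). The rest, named after their values were seen, did not pass: Fga (-1.42), Lman1 (-0.75), Serping1 (-0.49), Adamts13 (0.42) and Anxa2 (2.26).

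Of 34 measured further complement genes, 7 were in the table, 3 lower and 4 higher. All 3 lower genes passed. C1rb, the close copy of C1ra, fell 1.93-fold (adjusted p = 0.0483 in limma). Cpn2, a subunit of the carboxypeptidase that inactivates anaphylatoxins, fell 1.84-fold (adjusted p = 0.0458). Itgam, a chain of complement receptor 3 on myeloid cells, rose 1.75-fold (adjusted p = 0.0261). Higher but not passing were Colec10 (0.70), Colec11 (0.72) and Itgax (2.15), named after their values were seen. No gene of the vitamin K cycle and gamma-carboxylation, of 10 measured, was in the table. Among 21 hepatocyte transcription factors, Foxa3 fell 1.82-fold (adjusted p = 0.0334) and Nr5a2 1.55-fold (adjusted p = 0.0430). Hnf4a was not in the table. Of 20 genes of interleukin 6 and STAT3 signalling, Lifr, the receptor chain for leukaemia inhibitory factor, fell 3.76-fold, with means of 13.82 ± 0.33 in chow (SD, n = 4) and 11.91 ± 0.63 in HFD (SD, n = 3) and adjusted p = 0.0400 in limma, and the others were outside the table. Each call named here was lost when HFD replicate 2 was left out (adjusted p = 0.0558 to 0.183 in limma). All were also lost without HFD replicate 1, and without chow replicate 1, 3 or 4. Fgl1 and Serpina10 alone still passed without chow replicate 2. Fgl1, Serpina10, Cpn2, Itgam and Lifr still passed without HFD replicate 3.

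Table values of macrophage and stellate cell markers lay higher in HFD, opposite to the 11 genes. In the table were 3 of 14 measured macrophage markers, all higher in HFD and all passing, and 4 of 12 stellate cell markers, all higher and none passing. Itgam and Colec11 are on these lists as well as on the complement list. The log2 of the summed table values of these macrophage markers was 11.36 to 11.41 in chow and 12.09 to 12.54 in HFD, and that of the stellate markers 15.56 to 15.77 and 16.09 to 16.70. Of 19 hepatocyte markers 2 were in the table, both lower and 1 passing, with sums of 18.46 to 18.59 in chow and 17.93 to 18.10 in HFD. Only markers in the table were summed, and those of each list all lay on one side. The table's selection therefore fixed in advance that the chow and HFD sums would not overlap. Nothing is known here of the chow level of the markers outside the table. The values were summed before the log, so each sum mostly follows its brightest marker. These were Itgam (means 11.37 in chow and 12.18 in HFD), Dcn (15.38 and 16.03) and Serpina1a (18.45 and 17.93). Every macrophage, stellate and hepatocyte marker measured was well above background on all 3 HFD arrays. In whole liver, fewer cells of a type and less RNA per cell cannot be told apart, and the part of these markers in the lower values was not tested. Pf4 was the only platelet marker of 10 in the table, and no sinusoidal endothelial, cholangiocyte, erythroid, lymphocyte, adipose or pancreas marker on the lists was in it.

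Within the HFD group the 36 genes did not vary evenly. With scaling to the 75th percentile, 31 of 36 were highest in HFD replicate 3 and 32 of 36 lowest in replicate 1, where 38.5% and 42.0% of the 17609 genes well above background on all 3 arrays were. After quantile normalization 25 were highest in replicate 3 (of all genes, 36%) and 19 lowest in replicate 1 (36.4% of all). The median range over the 3 arrays was 0.34 for the 36 genes and 0.33 for the 17609 genes. Which of them was wider depended on the processing, with 0.24 and 0.32 after quantile normalization and 0.41 and 0.28 after normexp background correction. Over the 2 arrays left without HFD replicate 1 the median range of the 36 genes was 0.17. By the brightest probe of each gene, C8b, C6, C8a and C9 kept the widest ranges under quantile normalization, at 2.19, 1.24, 0.93 and 0.81. The summed macrophage markers ran the other way in HFD replicates 1 to 3, at 12.54, 12.26 and 12.09, as did the stellate markers, at 16.70, 16.44 and 16.09. The summed hepatocyte markers were highest in replicate 3, at 17.93, 17.94 and 18.10. The medians of the deposited HFD columns fell from replicate 1 to 3 as well, at 9.85, 9.78 and 9.68. The sums and medians are of the deposited values, which are scaled otherwise than the scanner signals of the 36 genes. HFD replicate 1 had a mean negative control signal of 54.8 against 34.8 and 35.2 on the other HFD arrays, and the part of these values in the pattern was not tested.

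**Figure D4:**
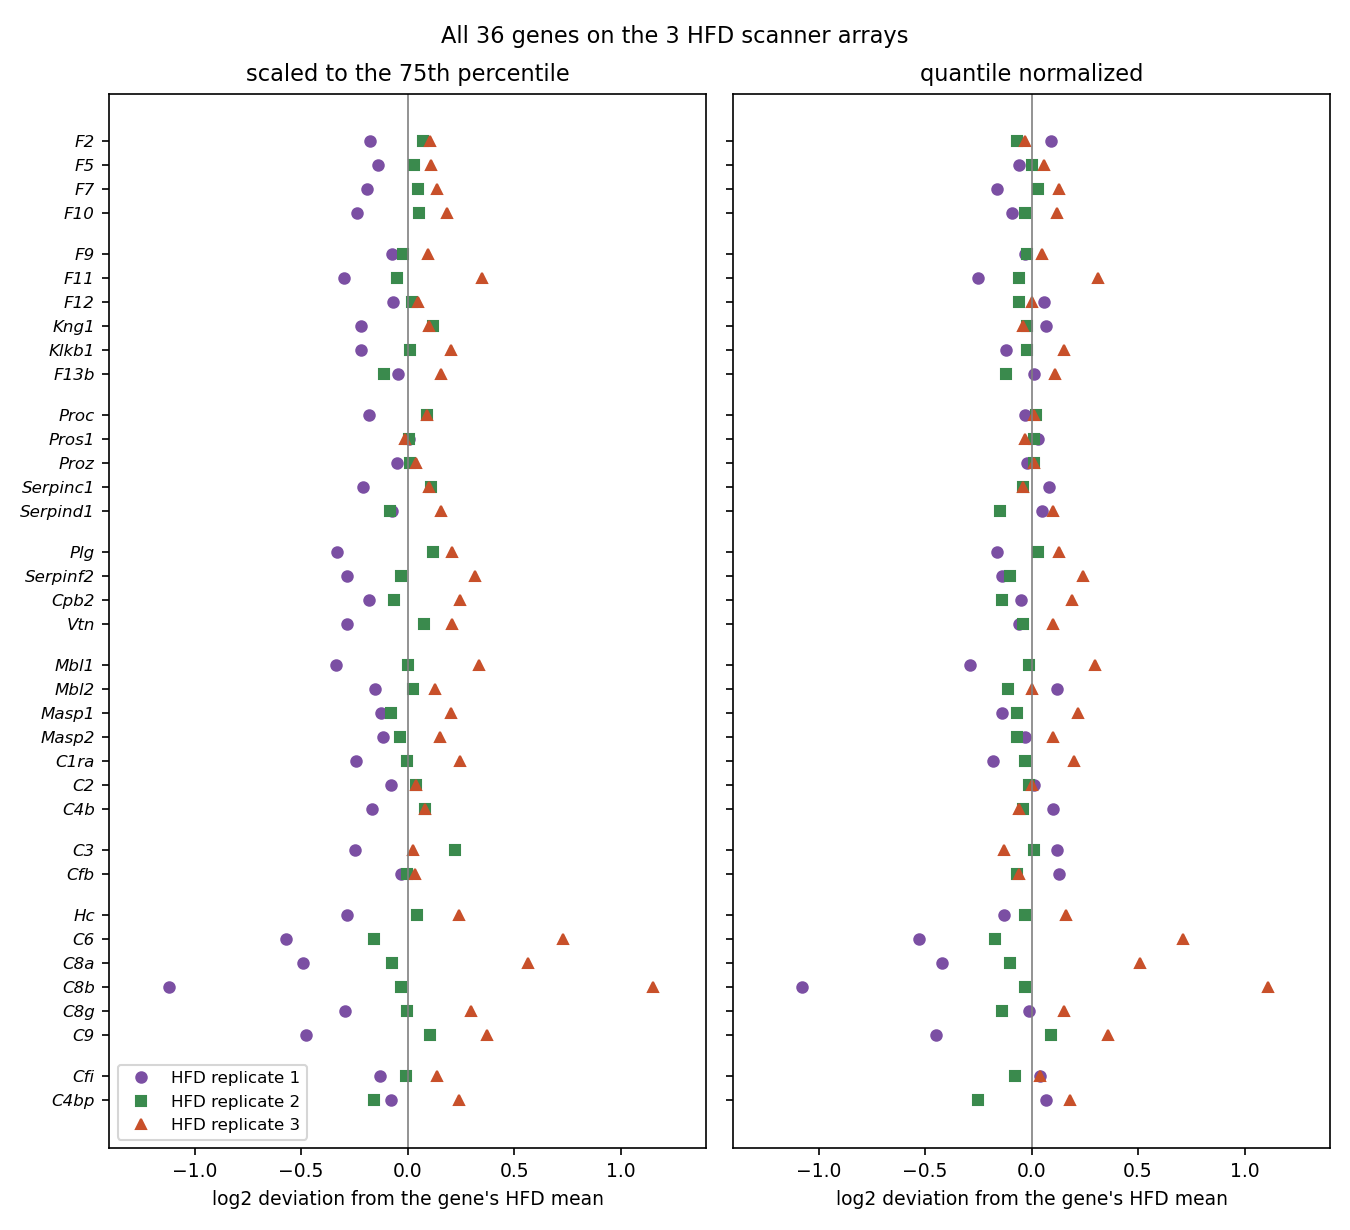
Deviation of each of the 36 genes (brightest probe on the HFD arrays) from its own HFD mean (horizontal axes, log2) on the 3 HFD arrays, scaled to the 75th percentile on the left and quantile normalized on the right. C8b, C6, C8a and C9 spread most in both panels, with replicate 3 highest, while the offset of replicate 1 seen on the left is smaller on the right.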

How the data were processed

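Liver RNA was labelled with Cy3 from 0.5 microgram and hybridised to 1-colour Agilent arrays, per the labels' protocols. The deposited scanner files give intensity values, extracted with Feature Extraction 10.7.3.1 per the file headers, against version 9.1 in the submitters' processing notes. A deposited table holds log2 values that the authors made for 1615 probes by a normalization and selection that no source used here gives.

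Probes were named through RefSeq accessions (27234 of 39429 named, GRCm38.p6, names and gene order only). A limma 3.58.1 (R 4.3.3) model compared HFD with chow on the table, using the brightest of each gene's probes in the table. For C1ra, C3 and Kng1 the probe brightest on the HFD arrays lay outside the table and was not compared. Benjamini-Hochberg adjustment covered 32451 genes, those outside the table counting as not significant. Variances were moderated toward a prior (variance 0.0354, 2.10 degrees of freedom) from 19490 genes that 2 or more HFD arrays measured above background. The fit was tested on simulated data. The self-test drew its variances from that prior.

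HFD scanner levels are log2 of the processed signal over the array's 75th percentile (758 to 971), with control spots and outlier flags left out. On the HFD arrays 57.0% to 66.8% of spots stood well above background. The number of arrays limits the precision.

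Named genes followed a written rule: each of the 36, and each passing gene of 5 further lists, or the gene with the smallest p where none passed. The members and lists were chosen with earlier results of these data known. Some related genes that the rule covers are not reported here. Alternatives are given with the closing observations.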

Additional observations from a re-analysis of the deposited data

Results flagged for a closer look

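Chow values of 28 genes, the 11 in the table and 17 related genes, were searched for a sample that stood apart by Dixon's criterion, which chance meets in about 1 of 20 groups. It was met once: Proz had 12.49 in chow replicate 1, against 12.08 to 12.09 in the other 3 chow samples, a gap of 0.976 of the group's range. The 3 HFD samples of Proz lay between 11.62 and 11.65.

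The scanner files labelled chow, which no comparison used, held signal for some of these genes: 16 of the 36 were well above background on all 4 of those arrays and 15 on none.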

How the results depend on the processing

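All 11 genes kept a lower value in HFD under every alternative run. Only quantile normalization of the columns could have changed this direction. In every other run the table's selection fixed it in advance, and centring also lowered every difference by 0.21. After quantile normalization of the columns C3 kept a difference of only -0.02. The count that passed was 3 as reported, 3 after quantile normalization of the columns, 10 with the prior estimated from the table, 9 with columns centred on their median, 5 with the mean of all probes of a gene, 11 with adjustment over the table alone, and 0 to 2 with 1 sample left out. No member passed as higher under any of these. Over the whole table the passing genes were 270 lower and 342 higher as reported, 474 and 552 with the table's prior, 605 and 186 after centring, 531 and 291 after quantile normalization, 687 and 801 over the table alone, and 0 to 210 lower and 0 to 243 higher with 1 sample left out. With the replicate block 0 members and 0 table genes in either direction passed (adjusted p of 0.267 to 0.579 for the 11 genes). Deviations of same-numbered samples correlated at -0.10, 0.14 and 0.03, so these samples share a number and were not taken as paired. The number of the 36 lowest in HFD replicate 1 was 32, and 19 after quantile normalization. The cause of these changes was not tested. Signal over background did not limit the 36 genes on the HFD arrays.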
